A study of Mus musculus with 16 samples.

Results

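The expression of 9 genes of bone morphogenetic protein (BMP) signalling was described in mouse embryonic stem (ES) cells that left naive pluripotency from 2 maintenance media. The genes were the Id genes Id1, Id2, Id3 and Id4, the inhibitors Smad6 and Bambi, the ligands Bmp4 and Bmp7 and the receptor Bmpr1a, taken by symbol from the 27179 genes of the count table. All 9 were in the table and all 9 passed the filter on low counts. The 16 RNA libraries formed 8 groups of 2 replicates. The first medium, 2i/LIF, was a serum-free mix of DMEM/F-12 and Neurobasal with N-2 and B-27 supplements, leukaemia inhibitory factor (LIF) and 2 inhibitors, 3 uM CHIR99021 against the kinase GSK3 and 1 uM PD0325901 against the kinase MEK. The second medium, serum/LIF+2i, was knockout DMEM with 10% fetal bovine serum, LIF and the same inhibitors, and its cells are called the serum arm. The cells of both arms came from serum/LIF culture on gelatin and therefore had an earlier history in serum. Each arm was sampled at 0 h and at 12, 24 and 40 h after a wash and a change to serum-free medium without LIF or the inhibitors. Cells of the 2i/LIF arm stayed in the same base, while the serum arm went into DMEM and Neurobasal with the same supplements. The media at 0 h thus differed in base and supplements as well as in serum, and the arms after 0 h differed in base as well as in history. Effects of serum, base and supplements cannot be told apart. The words "with serum" and "from serum" name the arm only. Glutamine was given as 2 mM for both arms. The protocol text gives 24 or 40 h for cells from serum, whereas the sample titles also give 12 h in that arm. The titles were followed.

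BMP ligands bind type I receptors such as BMPR1A together with type II receptors, and the receptors phosphorylate the signal-transducing SMADs, which enter the nucleus with SMAD4. The Id genes are their best known direct targets. Id proteins have a helix-loop-helix but no DNA-binding region, and they bind E proteins and keep them from DNA. Smad6 and Bambi encode feedback inhibitors of the pathway, one inside the cell and one a decoy receptor in the membrane. In mouse ES cells, BMP or serum together with LIF is known to sustain self-renewal, with Id proteins as a mediator, and serum is known to carry BMP activity.

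Positions are from the GENCODE M21 annotation of GRCm38. Id1 spans chr2:152736251-152737410 on the plus strand, Id2 chr12:25093799-25097140 on the minus strand, Id3 chr4:136143497-136145755 on the plus strand and Id4 chr13:48261228-48266026 on the plus strand. Smad6 spans chr9:63953076-64022059 and Bmp4 chr14:46383520-46390669, both on the minus strand. Bmp7 spans chr2:172868012-172940321 on the minus strand and Bmpr1a chr14:34410734-34503341 on the minus strand. Exons of Id4 overlap the antisense gene A330033J07Rik, which had 0 to 2 counts per library, and exons of Bmp4 overlap Gm15217, which had 0 to 1. Whether counting used strand is not given in the sources used here, so reads of these partners cannot be told apart from those of Id4 and Bmp4. Exons of Id4 also overlap the antisense gene Gm49291, and exons of Bmpr1a overlap Gm17110. Neither symbol was in the count table, so no count is available for them.

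The promoters of Bmp4, Id4 and Smad6 are shown because their windows lay outside annotated exons, and expression played no part in that choice. Each is the 250 bases before the transcript start in RefSeq on GRCm38.p6, read 5′ to 3′ along the gene's strand. RefSeq windows matched 6 of the 9 genes, and 3 of those 6 lay outside annotated exons and are printed. Both strands were searched for GGCGCC (a GC-rich SMAD1/5 motif), CAGAC (the SMAD-binding element), GGGCGG (the GC box) and TATAAA. Capitals mark a match to any of them, and letters shared by overlapping matches are capitalised once.
Bmp4 (chr14:46390670-46390919, minus strand): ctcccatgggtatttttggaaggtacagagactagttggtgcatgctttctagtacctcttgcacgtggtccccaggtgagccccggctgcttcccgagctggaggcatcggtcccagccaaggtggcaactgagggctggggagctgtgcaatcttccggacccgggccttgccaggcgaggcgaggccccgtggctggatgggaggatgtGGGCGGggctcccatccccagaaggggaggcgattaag
Id4 (chr13:48260866-48261115, plus strand): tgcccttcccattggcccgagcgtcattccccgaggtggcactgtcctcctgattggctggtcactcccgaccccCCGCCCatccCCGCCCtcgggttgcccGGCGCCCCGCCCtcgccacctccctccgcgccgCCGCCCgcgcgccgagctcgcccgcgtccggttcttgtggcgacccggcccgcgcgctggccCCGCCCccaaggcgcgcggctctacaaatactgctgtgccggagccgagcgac
Smad6 (chr9:64022060-64022309, minus strand): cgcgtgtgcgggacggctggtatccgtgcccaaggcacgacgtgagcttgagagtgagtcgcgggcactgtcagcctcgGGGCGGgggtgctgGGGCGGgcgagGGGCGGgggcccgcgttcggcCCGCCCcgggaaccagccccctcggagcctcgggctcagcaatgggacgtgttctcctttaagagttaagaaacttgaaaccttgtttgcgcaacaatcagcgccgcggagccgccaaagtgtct
The Bmp4 window held 1 GGGCGG, at position -38 from the start, and none of the other motifs. The Id4 window held 5 GGGCGG and 1 GGCGCC, and the Smad6 window held 4 GGGCGG. Of 32851 windows of the same length in RefSeq, 32.7% held GGGCGG, 9.59% GGCGCC, 42.2% CAGAC and 12.4% TATAAA. The GC content was 63.2% for Bmp4, 75.6% for Id4 and 66.8% for Smad6, beside a median of 52.4% over all windows. A match is a description of the letters and not a bound site.

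Total counts per library ran from 5931381 to 11142744, and replicates of a group correlated at r = 0.991 to 0.995 across genes. The labels do not say that replicates were separate cultures, so p-values measure only the spread between these libraries. Of 10 ES cell markers, all were detected in every library, and their summed level fell from between 7163 and 7568 CPM at 0 h to between 1998 and 2091 at 40 h. CPM are counts scaled to a common library size, with factors from the trimmed mean of M values. Summed markers of other cells reached 23.5 CPM for fibroblasts, 18.9 for primitive endoderm and 17.2 for mesoderm, and Postn, a fibroblast marker, had 0 counts in all libraries. The summed neural list was highest at 40 h (up to 165 CPM, from 63.1 at the lowest) and the trophectoderm list at 0 h (up to 149.9 CPM, from 23.0 at the lowest), and their part in the results was not tested. These are bulk libraries, in which fewer cells of a type and less RNA per cell cannot be told apart. Log2 fold changes come from edgeR's quasi-likelihood test over 14288 genes, and "called" means an adjusted p under 0.05.

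In the maintenance media, before release, 1 of the 9 genes was called between the arms, Bmp7, beside 33.0% of all genes tested. The median log2 difference of the 9 was -0.07, beside -0.01 over all genes tested. Bmp7, a ligand, had 16.7 and 15.3 CPM in the 2i/LIF libraries and 8.82 and 11.6 in the serum libraries, and the groups did not overlap. Bmp7 was lower in the serum arm, with a log2 difference of -0.65 ± 0.18 (SE, edgeR adjusted p = 0.00316). The call was lost without replicate 1 of the serum arm at 0 h (-0.46, adjusted p = 0.110) and with DESeq2's Wald test (-0.65, adjusted p = 0.0995).

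The Id genes showed no called medium difference at 0 h. Id1 had 3.96 and 3.95 CPM in 2i/LIF and 2.50 and 3.52 in the serum arm, a log2 difference of -0.39 with a 95% interval of -1.02 to 0.24. Id2 had 8.62 and 8.51 CPM against 12.6 and 10.7, and both serum libraries were above both 2i/LIF libraries. Its difference was 0.45 ± 0.19 (SE), which missed the threshold after adjustment over all genes (edgeR adjusted p = 0.0653). Id3 had 7.24 and 9.87 CPM against 8.37 and 4.11, so the groups overlapped. Its difference was -0.47 (interval -0.94 to 0.00287), and without replicate 1 of the serum arm at 0 h it was called lower with serum (-1.07, adjusted p = 0.00298). Id4 had 13.1 and 13.8 CPM against 14.1 and 14.1, a difference of 0.07 with an interval of -0.29 to 0.42. The intervals of Id1 and Id4 leave room for differences in either direction. That of Id3 lies almost wholly below 0 and that of Id2 (0.06 to 0.83) wholly above 0. These intervals are not adjusted over all genes.

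The other members at 0 h were also not called. Bmp4 had 7.07 and 6.38 CPM in 2i/LIF and 7.49 and 6.90 in the serum arm (log2 difference 0.10, interval -0.35 to 0.55). Bmpr1a, by far the most abundant member, had 133 and 133 CPM against 124 and 129 (interval -0.19 to 0.04). Smad6 had 8.27 and 8.81 CPM against 7.49 and 7.78 (interval -0.61 to 0.28). Bambi had 12.8 and 15.3 CPM against 19.1 and 16.3, and its difference of 0.33 ± 0.15 (SE) did not pass (edgeR adjusted p = 0.0873).

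After release, Id1, Id3, Bmp4, Bambi and Smad6 had their highest mean at 12 h in both arms. Most members had a lower mean at 40 h than at 0 h. All exit changes of an arm are measured against the same 0 h libraries and so are not independent of each other. In 2i/LIF, 6 of 9 genes were called at 12 h, beside 44.7% of all genes tested. At 24 h 5 were called, 4 of them lower, beside 58.8% of all genes and 29.6% lower. At 40 h 4 were called, each lower, beside 68.8% and 34.7% lower. The serum arm had 7 called at 12 h, beside 51.2%. It had 7 called at 24 h, 6 of them lower, beside 64.4% and 32.0% lower. All 9 were called at 40 h, 8 of them lower, beside 70.5% and 35.3% lower. The median change of the 9 from 0 to 40 h was -0.45 in 2i/LIF, beside 0.01 over all genes, and -0.90 in the serum arm, beside -0.0032. Shares of this size among all genes mean that a call alone sets no member apart. At 12 h, Id1, Id3 and Bmp4 were called higher and Id4 and Bmp7 lower than at 0 h in both arms. At 40 h Bmpr1a was the 1 member called higher, in the serum arm.

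Id1, an Id gene that BMP induces directly, rose and then dropped below its starting level. In 2i/LIF it went from 3.96 and 3.95 CPM at 0 h to 11.1 and 10.3 at 12 h, 3.05 and 3.04 at 24 h and 0.877 and 1.36 at 40 h. The serum arm went from 2.50 and 3.52 CPM to 17.4 and 16.9 at 12 h, 1.33 and 2.14 at 24 h and 0.776 and 0.484 at 40 h. The 12 h libraries were the highest of each arm, and none overlapped another time. The rise at 12 h was 1.43 ± 0.24 (SE, edgeR adjusted p = 1.25e-07) in 2i/LIF, or 2.70-fold, and 2.50 ± 0.22 (SE, edgeR adjusted p = 1.65e-19) in the serum arm, or 5.67-fold. By 40 h Id1 was below 0 h, with a change of -1.82 ± 0.39 in 2i/LIF (edgeR adjusted p = 1.66e-05) and of -2.21 ± 0.42 in the serum arm (edgeR adjusted p = 1.48e-06). At 24 h the serum arm was called lower than 0 h, a call lost without replicate 2 at 0 h (-0.50, adjusted p = 0.356), without replicate 1 at 24 h (-0.49, adjusted p = 0.294) and with DESeq2 (-0.77, adjusted p = 0.0967).

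Id3, the most abundant Id gene per length at 12 and 24 h, was above its 0 h level at both times. Its levels in 2i/LIF were 7.24 and 9.87 CPM at 0 h, 31.9 and 39.3 at 12 h, 23.5 and 22.3 at 24 h and 8.14 and 5.57 at 40 h. Levels in the serum arm were 8.37 and 4.11 CPM at 0 h, 39.2 and 45.2 at 12 h, 12.3 and 12.3 at 24 h and 3.88 and 3.58 at 40 h. The 12 h libraries were the highest of each arm, and the 24 h libraries lay between them and the 0 h libraries. The 12 h change was 2.04 ± 0.16 (SE, edgeR adjusted p = 2.67e-19) in 2i/LIF and 2.76 ± 0.16 (SE, edgeR adjusted p = 1.09e-26) in the serum arm, where it was 3.36 without replicate 1 at 0 h. The 24 h change was 1.41 ± 0.18 (SE, edgeR adjusted p = 7.08e-11) in 2i/LIF. The change in the serum arm was 0.98 ± 0.20 (SE, edgeR adjusted p = 1.61e-05), and it was 1.58 without replicate 1 and 0.57 without replicate 2 of the 0 h group. At 40 h Id3 was called lower than 0 h in the serum arm (-0.74 ± 0.25 SE, edgeR adjusted p = 0.00731), a call that was lost without replicate 1 at 0 h (-0.14, adjusted p = 0.728) and was -1.16 without replicate 2. In 2i/LIF the 40 h change was -0.32 ± 0.22 (SE, edgeR adjusted p = 0.197), and it was called without replicate 1 at 40 h (-0.63, adjusted p = 0.0456).

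Id4 was below its 0 h level at every later time in both arms and was near the detection limit at 40 h. In 2i/LIF it had 13.1 and 13.8 CPM at 0 h, 5.34 and 5.21 at 12 h, 2.08 and 1.37 at 24 h and 0.501 and 0 at 40 h. Cells from serum had 14.1 and 14.1 CPM at 0 h, 5.41 and 5.003 at 12 h, 0.553 and 0.815 at 24 h and 0.345 and 0.0968 at 40 h. The levels of successive times did not overlap in either arm. The log2 change at 12 h was -1.35 ± 0.21 in 2i/LIF (edgeR adjusted p = 3.43e-08) and -1.44 ± 0.20 in the serum arm (edgeR adjusted p = 6.88e-10). The 40 h libraries held 4 and 0 counts in 2i/LIF and 4 and 1 in the serum arm. The fitted 40 h changes of -5.61 and -5.86 rest on these few counts. Leaving out 1 library of the 40 h groups moved them to -9.75 without 2i/LIF replicate 1, -4.71 without 2i/LIF replicate 2 and -6.96 without serum replicate 1. The Id4 promoter printed above is the most GC-rich of the 3 shown.

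Id2 followed another course, with a low point at 24 h and higher levels at 40 h. In 2i/LIF it had 8.62 and 8.51 CPM at 0 h, 7.40 and 6.82 at 12 h, 4.44 and 4.10 at 24 h and 7.26 and 6.66 at 40 h. The serum arm had 12.6 and 10.7 CPM at 0 h, 5.68 and 4.68 at 12 h, 1.44 and 2.14 at 24 h and 5.60 and 6.97 at 40 h. In each arm both 24 h libraries were the lowest and both 0 h libraries were the highest. The log2 change from 0 to 24 h was -0.997 ± 0.24 in 2i/LIF (edgeR adjusted p = 1.93e-04) and -2.69 ± 0.25 in the serum arm (edgeR adjusted p = 1.55e-18). From 24 to 40 h Id2 rose by 1.78 ± 0.26 (SE, edgeR adjusted p = 3.39e-09) in the serum arm. In 2i/LIF the same step was 0.70 ± 0.24 (SE, edgeR adjusted p = 0.0120), a call lost without replicate 2 at 24 h (0.65, adjusted p = 0.0758), without replicate 1 at 40 h (0.63, adjusted p = 0.0806) and with DESeq2 (0.72, adjusted p = 0.0552). At 40 h Id2 was still below 0 h in the serum arm (-0.90 ± 0.18 SE, edgeR adjusted p = 7.29e-06), and in 2i/LIF the change was -0.30 ± 0.21 (SE, edgeR adjusted p = 0.209).

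**Figure D1:**
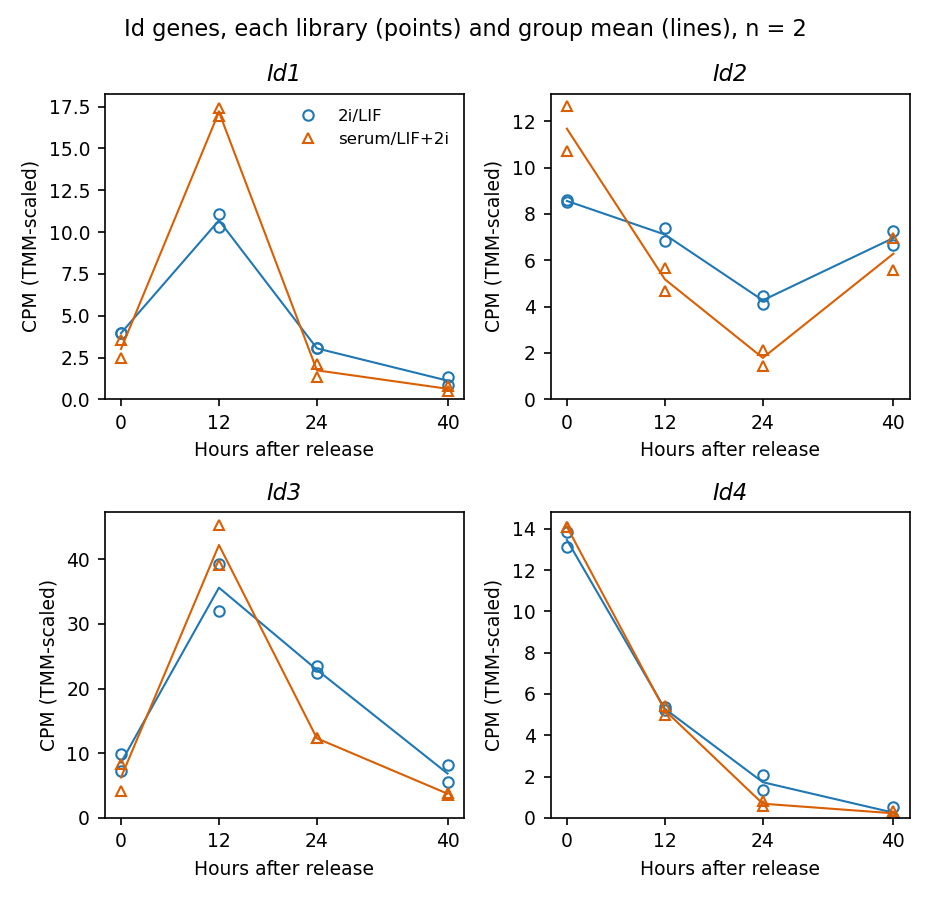
Levels of Id1, Id2, Id3 and Id4 in CPM, scaled by the trimmed mean of M values, against hours after release. Points are single libraries and lines join the means of 2 replicates in each medium. Id1 and Id3 peak at 12 h in both media, Id4 declines throughout, and Id2 is lowest at 24 h.

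Per length, the make-up of the Id pool changed over time. The 4 Id genes summed to 26.6 and 29.7 RPKM (CPM divided by the deposited gene length in kilobases) in 2i/LIF and 30.0 and 25.1 in the serum arm at 0 h, and the arms overlapped. At 12 h the sums were 54.7 and 61.0 against 68.0 and 72.7 RPKM, with serum higher. At 24 h the order was the other way, with 32.7 and 30.8 RPKM in 2i/LIF and 15.8 and 17.5 in the serum arm. At 40 h they were 15.5 and 12.6 RPKM in 2i/LIF and 9.53 and 9.82 in the serum arm. Id4 made up 29.7 and 28.0% of the sum in 2i/LIF and 28.4 and 33.8% in the serum arm at 0 h. By 12 h its share was 5.88 and 5.15% in 2i/LIF and 4.79 and 4.14% with serum. Id3 then held 61.2 and 67.6% in 2i/LIF and 60.5 and 65.3% with serum. At 40 h Id2 held 36.8 and 41.6% of a much smaller sum in 2i/LIF and 46.2 and 55.8% in the serum arm. Id3 held 55.1 and 46.5% in 2i/LIF, more than Id2 in both libraries, and 42.7 and 38.2% in the serum arm, less than Id2 in both. These shares are descriptions of the libraries and were not tested.

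**Figure D2:**
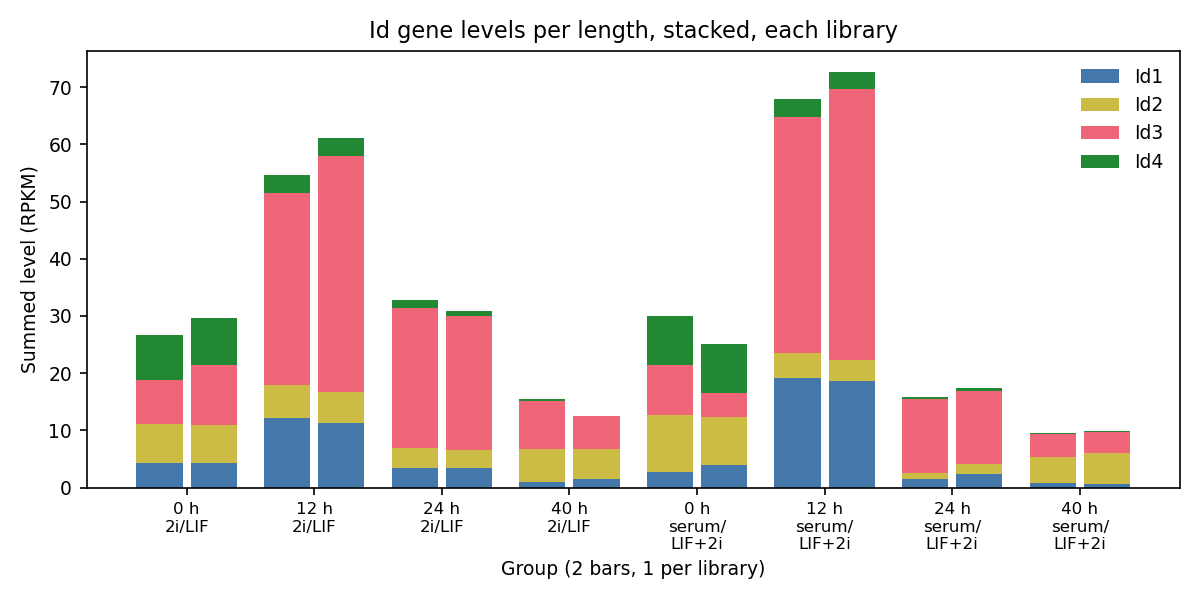
Summed level of the 4 Id genes in RPKM, stacked by gene, with 1 bar per library and 2 bars per group. The bars are tallest at 12 h, where Id3 is the largest segment, and Id4 is visible mainly at 0 h.

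The ligands, secreted proteins that start the signal, moved in opposite directions by 12 h. Bmp4 in 2i/LIF went from 7.07 and 6.38 CPM at 0 h to 25.6 and 22.7 at 12 h, 3.33 and 2.74 at 24 h and 0.250 and 0.815 at 40 h. The serum arm went from 7.49 and 6.90 CPM at 0 h to 44.2 and 37.9 at 12 h, 2.10 and 3.16 at 24 h and 1.03 and 0.968 at 40 h. The 12 h libraries stood above all others of their arm, and both arms were below 0 h by 24 h. The rise at 12 h was 1.85 ± 0.17 (SE, edgeR adjusted p = 8.21e-18) in 2i/LIF, or 3.60-fold, and 2.50 ± 0.15 (SE, edgeR adjusted p = 9.51e-32) in the serum arm, or 5.66-fold. From 12 to 24 h Bmp4 fell, with a change of -2.98 ± 0.20 in 2i/LIF (edgeR adjusted p = 1.12e-26) and of -3.94 ± 0.17 in the serum arm (edgeR adjusted p = 3.94e-44). The 40 h change from 0 h was -3.64 in 2i/LIF, which ran from -4.66 without replicate 2 to -3.02 without replicate 1 of that group, and -2.82 in the serum arm. Its promoter window, printed above, held the letters of neither SMAD motif.

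Bmp7 fell by 12 h and stayed low. In 2i/LIF it had 16.7 and 15.3 CPM at 0 h, 3.56 and 3.88 at 12 h, 1.80 and 0.760 at 24 h and 2.004 and 2.17 at 40 h. Cells from serum had 8.82 and 11.6 CPM at 0 h, 1.89 and 1.06 at 12 h, 1.33 and 1.43 at 24 h and 1.55 and 1.74 at 40 h. All later libraries were below all 0 h libraries of both arms. The log2 change at 12 h was -2.10 ± 0.22 in 2i/LIF (edgeR adjusted p = 6.69e-15) and -2.82 ± 0.29 in the serum arm (edgeR adjusted p = 6.08e-16). Of the summed RPKM of both ligands, Bmp4 made up 29.4 and 29.1% in 2i/LIF and 45.6 and 37.0% in the serum arm at 0 h. At 12 h the Bmp4 share was 87.7 and 85.3% in 2i/LIF and 95.8 and 97.2% with serum. Of the pair, Bmp7 was thus the more abundant per length at 0 h and Bmp4 at 12 h in all libraries of those times.

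Bmpr1a, the type I receptor, moved by far less than the ligands. In 2i/LIF it had 133 and 133 CPM at 0 h, 129 and 122 at 12 h, 124 and 133 at 24 h and 148 and 140.0 at 40 h. The serum arm had 124 and 129 CPM at 0 h, 114 and 106 at 12 h, 125 and 117 at 24 h and 141 and 155 at 40 h. The serum 12 h libraries were the lowest of all 16 and the serum 40 h libraries included the highest. Its rise from 0 to 40 h was called in the serum arm (0.23 ± 0.05 SE, edgeR adjusted p = 8.61e-05). In 2i/LIF the same change was 0.12 ± 0.06 (SE, edgeR adjusted p = 0.0575), and it was called with DESeq2 size factors (0.13, adjusted p = 0.0280), with library size only (0.18, adjusted p = 0.00235), with a mean of at least 5 CPM (0.15, adjusted p = 0.0125), in a fit of only the groups compared (0.14, adjusted p = 0.0298), without ribosomal RNA genes (0.15, adjusted p = 0.0151) and without replicate 2 at 40 h (0.15, adjusted p = 0.0325). The fall at 12 h in the serum arm was -0.21 ± 0.06 (SE, edgeR adjusted p = 0.00137) and was lost without replicate 2 at 12 h (-0.15, adjusted p = 0.0814).

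The inhibitors varied within a narrow range. Bambi (chr18:3507923-3516404, plus strand), the decoy receptor, had 12.8 and 15.3 CPM at 0 h, 21.9 and 21.8 at 12 h, 16.1 and 17.8 at 24 h and 15.03 and 15.2 at 40 h in 2i/LIF. The serum arm had 19.1 and 16.3 CPM at 0 h, 21.4 and 20.3 at 12 h, 12.7 and 15.3 at 24 h and 11.5 and 11.03 at 40 h. The 12 h libraries were the highest in each arm, and the serum 40 h libraries were the lowest of all 16. It rose at 12 h in 2i/LIF (0.63 ± 0.14 SE, edgeR adjusted p = 9.63e-05) and was below 0 h at 40 h in the serum arm (-0.65 ± 0.14 SE, edgeR adjusted p = 2.31e-05). Its call at 24 h in the serum arm was lost without replicate 1 at 0 h (-0.22, adjusted p = 0.300), without replicate 1 at 24 h (-0.21, adjusted p = 0.267) and with DESeq2 (-0.32, adjusted p = 0.122). Smad6 ran from 4.10 to 11.2 CPM over all 16 libraries. Its levels in 2i/LIF were 8.27 and 8.81 CPM at 0 h, 7.81 and 11.2 at 12 h, 7.91 and 4.10 at 24 h and 5.13 and 7.47 at 40 h, and the replicates at 24 h differed the most. Levels in the serum arm were 7.49 and 7.78 CPM at 0 h, 10.4 and 8.20 at 12 h, 6.19 and 4.89 at 24 h and 5.69 and 5.32 at 40 h. Its change from 0 to 40 h in the serum arm was -0.47 ± 0.22 (SE, edgeR adjusted p = 0.0489). That call was lost with DESeq2 (-0.45, adjusted p = 0.186), under each other scaling tried, and without any one of the 0 h libraries of either arm or the serum 40 h libraries (adjusted p from 0.0543 to 0.146).

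**Figure D3:**
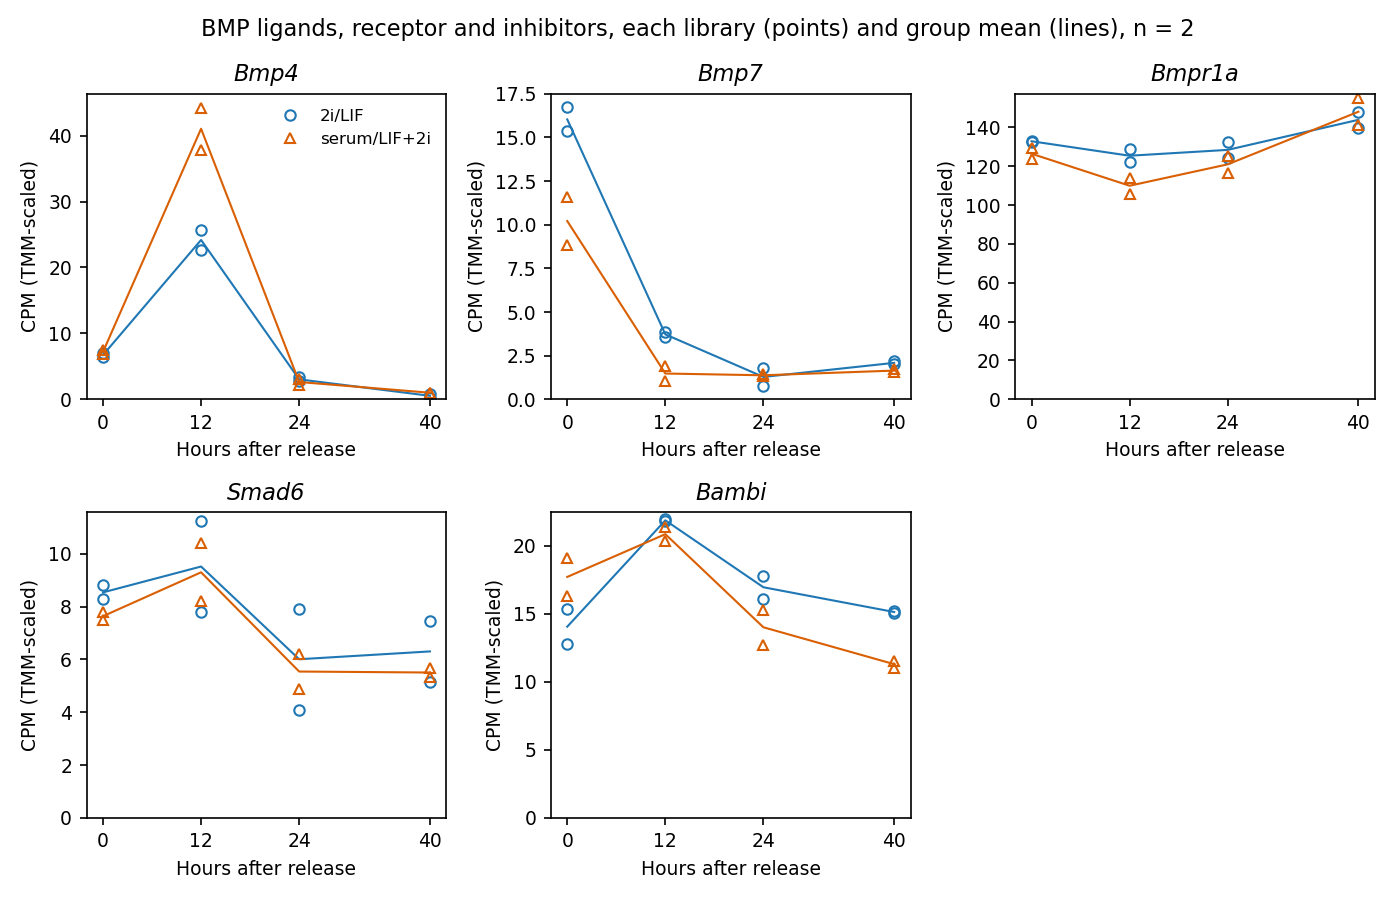
Levels of Bmp4, Bmp7, Bmpr1a, Bambi and Smad6 in CPM, scaled by the trimmed mean of M values, against hours after release. Points are single libraries and lines join the means of 2 replicates in each medium. Bmp4 peaks at 12 h while Bmp7 drops, and Bmpr1a stays between 106 and 155 CPM.

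Between consecutive times, most members fell from 12 to 24 h. In 2i/LIF 8 of 9 were called lower at that step (background 17.7% called lower and 35.1% in either direction). Without replicate 2 of 2i/LIF at 24 h, 5 were called, since Id2 (-0.68, adjusted p = 0.0801), Smad6 (-0.27, adjusted p = 0.460) and Bmp7 (-1.04, adjusted p = 0.0646) were lost. Of these calls, Id2 was also lost without replicate 1 at 12 h (-0.67, adjusted p = 0.0790), Smad6 without replicate 2 at 12 h (-0.37, adjusted p = 0.357), and Bambi without either replicate at 12 h or replicate 1 at 24 h (-0.30, adjusted p = 0.186 in the last case). In the serum arm 8 were called (background 48.4%), 7 of them lower (background 24.2% lower) and Bmpr1a higher. The Bmpr1a call at this step was lost without replicate 2 at 12 h (0.08, adjusted p = 0.369) and without replicate 1 at 24 h (0.09, adjusted p = 0.302). The Smad6 call there was lost without replicate 1 at 12 h (-0.57, adjusted p = 0.0557) and without replicate 2 at 24 h (-0.57, adjusted p = 0.0579). From 24 to 40 h, 6 members were called in each arm (background 46.7% in 2i/LIF and 50.5% in the serum arm), and Id2 and Bmpr1a were the members called higher in both. Without replicate 2 of the serum arm at 24 h, 3 were called in that arm, since Id1 (-1.04, adjusted p = 0.148), Bmp4 (-1.06, adjusted p = 0.0593) and Bambi (-0.17, adjusted p = 0.462) were lost. Id1 was also lost without replicate 2 at 40 h (-1.17, adjusted p = 0.0580), and Bambi without either replicate at 40 h (-0.36, adjusted p = 0.0885 and -0.29, adjusted p = 0.149). The Bmpr1a call in 2i/LIF at this step was lost without replicate 1 at 24 h (0.12, adjusted p = 0.183) or replicate 1 at 40 h (0.12, adjusted p = 0.139).

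After release, the arms were compared again at each time. At 12 h 4 members were called (background 30.3%). Id1 was higher in cells from serum by 0.68 ± 0.16 (SE, edgeR adjusted p = 4.50e-04) and Bmp4 by 0.76 ± 0.11 (SE, edgeR adjusted p = 1.40e-08), and for each gene the serum libraries were above the 2i/LIF libraries. Bmp7 and Bmpr1a were lower, with differences of -1.37 ± 0.36 (SE, edgeR adjusted p = 0.00130) and -0.19 ± 0.06 (SE, edgeR adjusted p = 0.00459). Without replicate 2 of the serum arm at 12 h, 2 members were called, and the Bmp7 (-0.97, adjusted p = 0.0936) and Bmpr1a (-0.14, adjusted p = 0.159) calls were lost. Bmpr1a was also lost without replicate 1 of 2i/LIF at 12 h (-0.15, adjusted p = 0.104), and with DESeq2 Id1 (0.69, adjusted p = 0.0587) and Bmpr1a (-0.19, adjusted p = 0.0590) were not called. Id3 at 12 h differed by 0.25 ± 0.11 (SE, edgeR adjusted p = 0.0634), and it was called higher under 6 of the alternatives, among them without replicate 2 of 2i/LIF at 12 h (0.41, adjusted p = 0.0185).

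At 24 h the Id genes called were lower in cells from serum. Of 9 members, 3 were called, Id2, Id3 and Id4 (background 31.1% called in either direction). Of the 2688 genes called there under DESeq2, 44.8% were higher in cells from serum, and 45.3% of the 75 called with a log2 fold minimum of 1. The members are edgeR calls without a fold minimum, so neither share is a matched background. Id2 had 4.44 and 4.10 CPM in 2i/LIF and 1.44 and 2.14 in the serum arm, a difference of -1.24 ± 0.31 (SE, edgeR adjusted p = 8.84e-04). Id3 had 23.5 and 22.3 CPM against 12.3 and 12.3, a difference of -0.90 ± 0.15 (SE, edgeR adjusted p = 6.83e-07). Id4, at 2.08 and 1.37 CPM against 0.553 and 0.815, differed by -1.32 ± 0.50 (SE, edgeR adjusted p = 0.0330). The Id4 call was lost without replicate 1 of 2i/LIF at 24 h (-0.97, adjusted p = 0.321), without either serum replicate at 24 h (-1.08, adjusted p = 0.176 and -1.63, adjusted p = 0.0596) and with DESeq2 (-1.33, adjusted p = 0.0732). Id1 differed by -0.80 ± 0.35 (SE, edgeR adjusted p = 0.0680), and it was called lower without serum replicate 2 at 24 h (-1.19, adjusted p = 0.0466).

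At 40 h 2 of 9 members were called, beside 27.3% of all genes tested called in either direction, so the count does not set the members apart. Both were lower in cells from serum, and the share of all genes called lower is not given here. Id3 differed by -0.88 ± 0.24 (SE, edgeR adjusted p = 0.00281), and the call was lost without replicate 1 of 2i/LIF at 40 h (-0.57, adjusted p = 0.223). Bambi differed by -0.42 ± 0.14 (SE, edgeR adjusted p = 0.0177), and the libraries of the arms did not overlap. Its call was lost without any one of the 4 libraries at 40 h, with adjusted p from 0.0529 to 0.0922, and with DESeq2 (-0.42, adjusted p = 0.121). The number called was 0 to 2 when 1 library was left out.

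**Figure D4:**
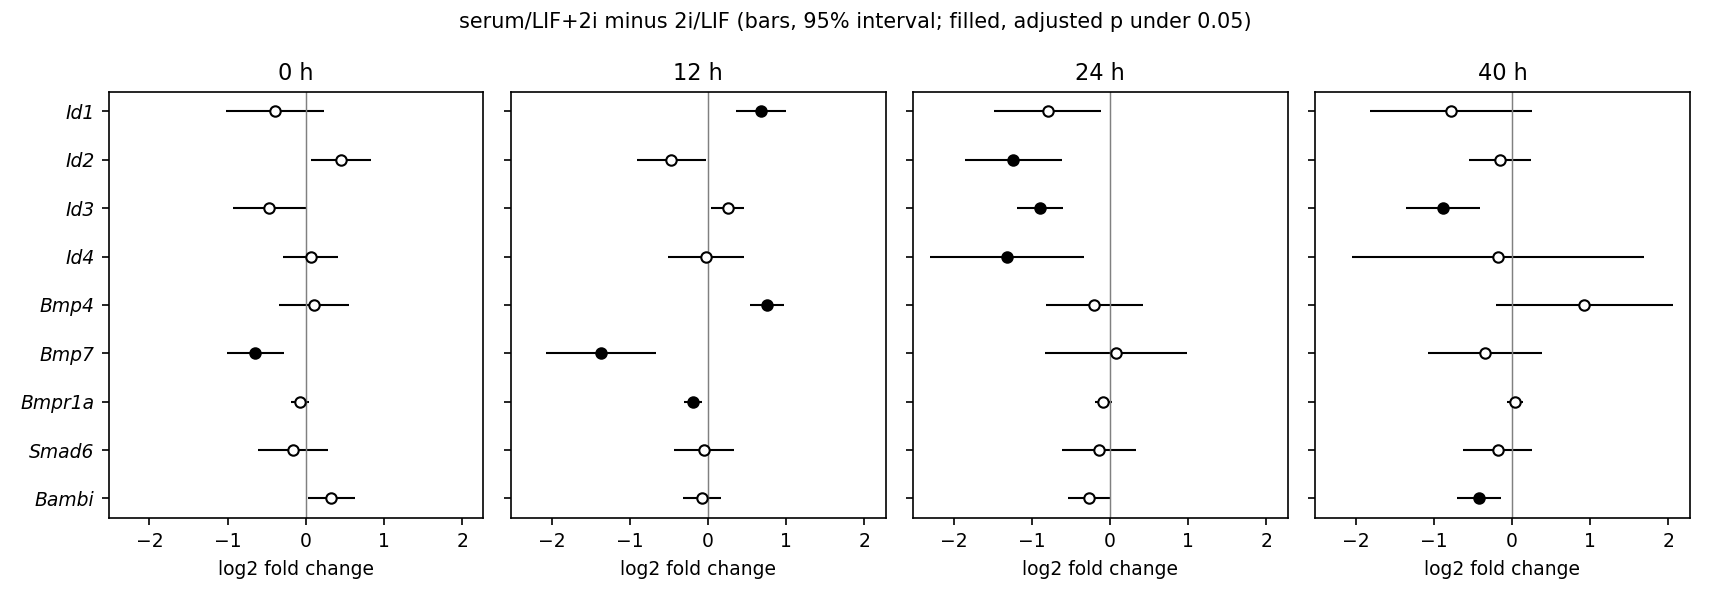
Log2 difference of serum/LIF+2i minus 2i/LIF for each of the 9 members at 0, 12, 24 and 40 h. Points are the edgeR estimates, bars are 95% intervals, and filled points passed an adjusted p under 0.05. Bmp7 is filled at 0 h, 4 members at 12 h, 3 Id genes at 24 h, and Id3 and Bambi at 40 h.

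Whether the change after release differed between the arms was tested as the difference of the exit changes, which shares its libraries with the comparisons above. The arms went into different bases at release, so maintenance medium and exit medium cannot be told apart in it. At 12 h 2 members were called (background 9.20%). The rise of Id1 was larger from serum by 1.07 ± 0.36 (SE, edgeR adjusted p = 0.0395), and the change of Id2 was more negative, by -0.92 ± 0.30 (SE, edgeR adjusted p = 0.0313). The Id1 call was lost without any one of the 8 libraries compared except replicate 2 of the serum arm at 0 h, with values from 0.85 to 1.13 where it was lost. The Id2 call was lost without any one of them except replicate 2 at 0 h and replicate 1 at 12 h of the serum arm, and both were lost with DESeq2 (adjusted p = 0.239 for Id1 and 0.248 for Id2). For Id3 the difference was 0.72 ± 0.26 (SE, edgeR adjusted p = 0.0659), and it was called without replicate 1 of the serum arm at 0 h (1.32, adjusted p = 0.00131).

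At 24 h 3 members were called (background 20.8% called in either direction), and all 3 had a lower exit change from serum. Of the 1720 genes called there under DESeq2, 48.7% had a higher exit change from serum, and 76.4% of the 55 called with a log2 fold minimum of 1. The 3 are edgeR calls without a fold minimum, so neither share is a matched background. Id2 differed by -1.69 ± 0.37 (SE, edgeR adjusted p = 1.69e-04) and held in every fit that left out 1 library. Id4 differed by -1.38 ± 0.53 (SE, edgeR adjusted p = 0.0487), and its call was lost without any one of 13 of the 16 libraries (each but replicate 2 of 2i/LIF at 24 h and the 2i/LIF replicates at 40 h) and with DESeq2 (-1.39, adjusted p = 0.135). Among the fits that lost it without 1 library, the value ran from -1.69 to -1.04. Bambi differed by -0.59 ± 0.21 (SE, edgeR adjusted p = 0.0265), which was lost without replicate 1 of 2i/LIF at 0 h (-0.46, adjusted p = 0.173), replicate 2 of 2i/LIF at 24 h (-0.52, adjusted p = 0.111), or replicate 1 of the serum arm at 0 h (-0.48, adjusted p = 0.157) or 24 h (-0.47, adjusted p = 0.141), and with DESeq2 (-0.59, adjusted p = 0.150). At 40 h Bambi was the 1 member called (background 27.6%), with a difference of -0.75 ± 0.21 (SE, edgeR adjusted p = 0.00313) that held without any 1 library.

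**Figure D5:**
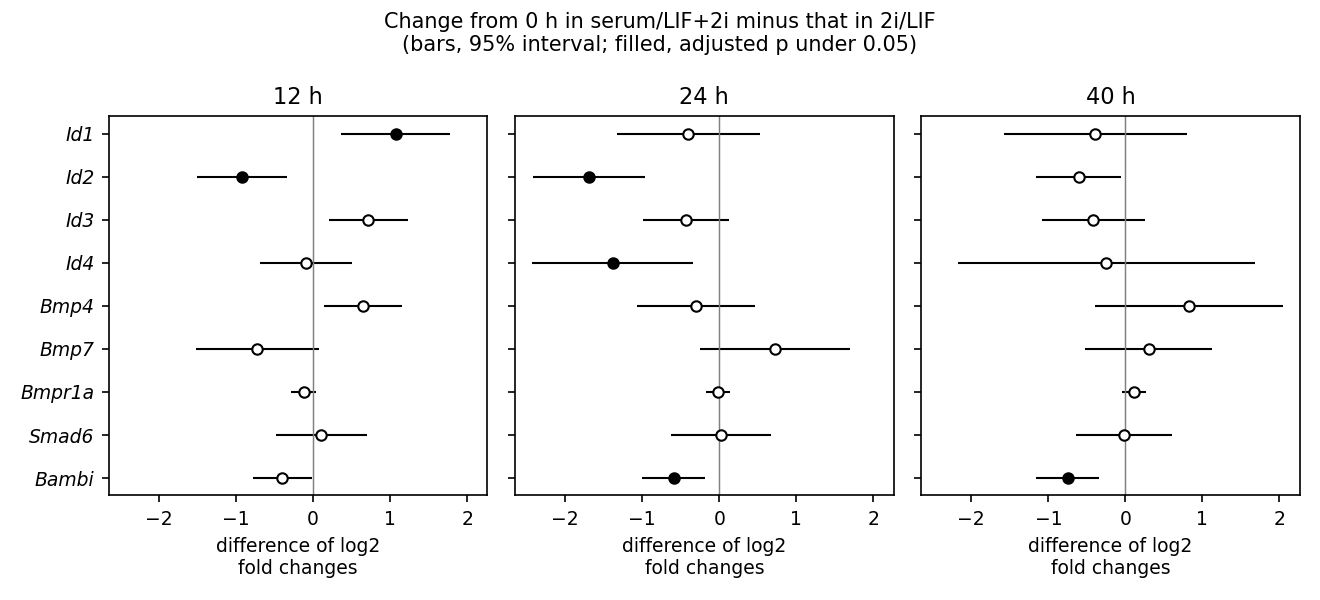
Difference between the exit changes of the arms (serum/LIF+2i minus 2i/LIF, log2) for each of the 9 members at 12, 24 and 40 h. Points are the edgeR estimates, bars are 95% intervals, and filled points passed an adjusted p under 0.05. Filled points are Id1 and Id2 at 12 h, Id2, Id4 and Bambi at 24 h, and Bambi at 40 h.

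Other genes of the pathway were read from a list of 69 ligands, receptors, SMADs, antagonists, inhibitors, targets and E proteins, of which 40 passed the filter. At 0 h 18 of the 40 were called (background 33.0% of all genes in either direction). Of these, 2 were higher with serum (Bmpr2 and Gata3) and 16 lower. Of the 3097 genes called at 0 h under DESeq2, 42.3% were higher with serum, and 22.9% of the 166 called with a log2 fold minimum of 1. The 18 are edgeR calls without a fold minimum, so neither share is a matched background. The list's median difference was -0.20, beside -0.01 over all genes. Neo1 and Rgma, a receptor and a co-receptor, were lower in the serum arm, with differences of -0.84 ± 0.05 and -0.76 ± 0.12 (SE, edgeR adjusted p = 1.70e-28 and 1.90e-07). Smad1, a signal-transducing SMAD, was also lower, at -0.49 ± 0.13 (SE, edgeR adjusted p = 0.00148). All 3 E proteins tested, the partners of Id proteins, were lower with serum at 0 h, among them Tcf4 at -0.65 ± 0.06 and Tcf12 at -0.37 ± 0.07 (SE, edgeR adjusted p = 6.35e-16 and 2.52e-06). Dusp9, a phosphatase and BMP target, had 20.5 and 20.7 CPM in 2i/LIF and 11.9 and 14.98 in the serum arm at 0 h, and was called lower with serum (-0.61 ± 0.14 SE, edgeR adjusted p = 1.71e-04). Gata3, by contrast, was called higher at 3.38 and 3.52 CPM against 0.689 and 0.608.

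From 0 to 40 h, 31 of the 40 were called in 2i/LIF (15 rose and 16 fell, background 68.8% in either direction) and 37 in the serum arm (21 rose and 16 fell, background 70.5%). The list's median change was -0.03 in 2i/LIF and 0.22 in the serum arm, beside 0.01 and -0.0032 over all genes. Smad7, the other inhibitory SMAD, fell, with changes of -2.40 ± 0.11 in 2i/LIF and -2.19 ± 0.10 in the serum arm (SE, edgeR adjusted p = 1.88e-35 and 1.53e-36). Skil, a SMAD co-repressor, rose by 2.65 ± 0.05 and 2.24 ± 0.05 (SE, edgeR adjusted p = 1.36e-77 and 5.81e-72). The secreted antagonist Fst fell, with changes of -2.41 ± 0.12 and -2.23 ± 0.13 (SE, edgeR adjusted p = 6.03e-37 and 2.29e-32). Of 7 other targets tested, 2 rose and 3 fell in 2i/LIF (median change -0.95), and 2 rose and 5 fell in the serum arm (median change -2.98). Zfp423, a SMAD partner and 1 of those that rose, went from 0.862 and 0.759 CPM to 48.5 and 51.9 in 2i/LIF and from 1.62 and 1.32 to 86.9 and 88.4 in the serum arm. Of the list, 16 genes had a called difference of exit changes at 40 h (background 27.6% in either direction). Of these, 13 were in the higher direction from serum, with Smad5 at 0.50 ± 0.10 (SE, edgeR adjusted p = 3.57e-05). Of the 2377 genes called there under DESeq2, 54.9% were in that direction, and 75.4% of the 122 called with a log2 fold minimum of 1. The 13 are edgeR calls without a fold minimum, so neither share is a matched background.

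Over the 8 group means, the genes whose pattern was most like Id1 among 10695 genes were Smpd2 (r = 0.994), Mrm2 (0.991) and Camk2b (0.989). For Bmp4 they were Gemin7 (0.990), Aamp (0.989) and Sall4 (0.981), for Bmpr1a Bspry (0.987), Rnf130 (0.981) and Ankrd49 (0.972), and for Smad6 Zcchc17 (0.967), Smc6 (0.965) and Mfsd14a (0.959). Among the members, Id1 was most like Bmp4 (r = 0.959) and less like Id2 (0.121). The points share their libraries and the 12 h peak, and the values are a description with no p.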

How the data were processed

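RNA of 16 libraries was measured, grouped by the sample titles. The labels' protocols give TRIzol extraction and a stranded poly(A) library kit. The authors deposited whole-number counts per gene, not normalized, with a gene length. The submitters' processing notes name fastp, STAR, featureCounts and mm10, without versions. No count column was set aside (0). Genes without a symbol (1049) were kept in library sizes and tests.

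Genes passing filterByExpr (minimum count 10, total 15) entered one edgeR 4.0.16 model (R 4.3.3) with a term per group and 8 residual degrees of freedom, scaled by the trimmed mean of M values. The quasi-likelihood F test was robust and two-sided, with Benjamini-Hochberg adjustment over 14288 genes for each of 17 comparisons. Its estimate of spread borrows from all genes, so p-values and intervals rest on more than the 8 residual degrees of freedom. The standard error is the log2 fold change divided by the root of F. RPKM uses the deposited length. The fit was tested on simulated data. Total counts of at least 5931381 make a floor of 3 counts 0.259 to 0.517 CPM, covering counting error only.

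All 9 members are named. From the pathway list, up to 2 genes per role with the smallest adjusted p in 4 comparisons could be named. Bmpr2 was named because a count was small and it was chosen after its value was seen. Likeness used 3 genes per chosen member above a mean of 5 CPM. The members and lists were chosen with earlier results of these data known. Alternatives were DESeq2 1.42.0, other scalings and filters, a fold minimum, a replicate block and leaving out each library.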

Additional observations from a re-analysis of the deposited data

Results flagged for a closer look

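For 6 results, the change after release passed a test of its difference between the arms, given as a log2 value for serum/LIF+2i minus 2i/LIF. Id1 at 12 h differed by 1.07, with a larger rise from serum, and Id2 at 12 h by -0.92. At 24 h Id2 differed by -1.69, Id4 by -1.38 and Bambi by -0.59. At 40 h Bambi differed by -0.75. The 2 that kept their call without any one library were Id2 at 24 h and Bambi at 40 h.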

How the results depend on the processing

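Of 153 tests of a member in a comparison, 82 were called, and no called value changed sign under an alternative. Under all alternatives except a fold minimum 55 calls were kept, and 26 were lost when 1 library was left out. DESeq2's Wald test called 0 members in the medium comparison at 0 h, 2 at 12 h and 1 at 40 h, 5 at the 12 to 24 h step of 2i/LIF, and 0 at 12 h and 1 at 24 h in the difference of exit changes. It called 3097, 2638, 2688 and 1982 genes in the medium comparisons at 0, 12, 24 and 40 h where edgeR called 4710, 4334, 4439 and 3897. In the differences of exit changes it called 536, 1720 and 2377 genes where edgeR called 1315, 2966 and 3940. With a mean of at least 5 CPM, Bmp7 was not tested and 0 members were called at 0 h. With a log2 fold minimum of 1, 0 members were called in the 4 medium comparisons and 0 in the 3 differences of exit changes. With it 3, 3 and 4 members were called at 12, 24 and 40 h of 2i/LIF and 4, 3 and 4 of serum/LIF+2i, with 2 and 3 at the steps of 2i/LIF and 4 and 2 at those of serum/LIF+2i. When 1 library was left out, the members called ranged from 2 to 5 in the medium comparison at 12 h and 0 to 2 at 40 h, 5 to 8 at the 12 to 24 h step of 2i/LIF, 3 to 6 at the 24 to 40 h step of serum/LIF+2i, and 0 to 2 at 12 h and 1 to 3 at 24 h in the difference of exit changes. Without replicate 1 of 2i/LIF at 40 h, 2240 genes were called between the media at 40 h. The cause of these changes was not tested.

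Replicate numbers were shared between groups, but deviations of the same number did not move together (28 pairs of groups, correlations from -0.0230 to 0.0331). With the replicate number as a block, 81 of the 82 calls were kept and 1 was lost, Id4 in the difference of exit changes at 24 h. The fit of only the groups compared gave a value for 148 of the 153 tests. Low counts limit Id1, Id4, Bmp4 and Bmp7 at the later times, where a level of under 1 CPM is near the floor of 3 counts.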
